A study of Drosophila melanogaster with 4 samples.

Results

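The replication machinery of BG3 cells was described through 31 genes, taken from the table of 8806 genes and transposable element families by their symbol or FlyBase alias. They cover the origin recognition complex, the licensing factors dup and geminin, the MCM helicase with Cdc45, GINS, Mcm10 and RecQ4, the primase and polymerases, the enzymes that finish lagging strands, ribonucleotide reductase, and the S phase regulators CycE and E2f1. The 31 were chosen by role, but with earlier results of these data known. All 31 had a row and passed the minimum mean of 10 normalized reads. BG3 is a Drosophila melanogaster line from the larval central nervous system. Cells labelled CapH2 Knockdown received dsRNA against Cap-H2, a subunit of condensin II, and cells labelled WT received dsRNA against Brown, a gene of eye colour that served as the control. Both groups had 20 µg of dsRNA for 30 min without serum and then 4 days in complete medium, with 2 libraries in each group. No label tells separate cultures from repeated libraries of a single culture, so every p-value rests on the spread between these libraries, which may be technical.

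Before S phase, the origin recognition complex (ORC) marks origins, and Cdc6 and Cdt1 load the MCM helicase there as an inactive ring. Cyclin E and other S phase kinases then let Cdc45 and GINS join the ring, which opens DNA for primase, the polymerases and the clamp PCNA. Many of these genes are targets of the transcription factor E2F1 and are transcribed most as cells enter S phase. In bulk RNA, fewer cells in S phase and less replication RNA per cell cannot be told apart.

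The libraries held 21539511 to 21935781 reads on genes and elements. Cap-H2 itself stood at 543 and 555 normalized reads (reads divided by the authors' size factor of the library) in the knockdown, against 880 and 873 in the control, so the RNA was 62.7% of the control (log2 fold change -0.67 with an SE of 0.06, limma adjusted p = 1.5e-05). Among markers of the labelled source, the neuronal gene elav had 564 and 577 normalized reads in the knockdown and 559 and 531 in the control. Repo had 76.8 and 83.3 in the knockdown and 90.5 and 76.0 in the control, with overlapping groups. Mira and pros were low, with means of 19.2 and 14.04 in the knockdown and 15.4 and 12.9 in the control. NSyb, brp and dpn had under 15 in every library, and Syt1, ase and wor had no row. The blood cell and phagocyte genes srp and drpr were abundant, with 5928 and 6037 and with 9466 and 9435 normalized reads in the knockdown, against 6374 and 6006 and against 8862 and 9228 in the control. The 6 blood cell markers summed to 16332 and 16426 normalized reads in the knockdown and 16348 and 16308 in the control, and NimC1 had under 8 in every library. Among them, Hml had 221 and 239 normalized reads in the knockdown and 339 and 287 in the control (log2 fold change -0.44, SE 0.11, limma adjusted p = 0.10). Eater had 52.8 and 54.8 in the knockdown and 77.7 and 55.0 in the control, and Pxn had 658 and 655 in the knockdown and 687 and 726 in the control. Both knockdown libraries were thus below both control libraries in Hml, eater and Pxn, while they were above them in drpr, and srp and drpr make up most of the sum. The part of such cells in the values below was not tested. The 12 rows of ribosomal RNA and its pseudogenes summed to 6798 and 12007 normalized reads in the knockdown, against 30723 and 8866 in the control, so control library 1 stood apart. Its part in the values below was not tested.

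None of the 31 replication genes passed the limma threshold, an adjusted p of 0.05 over all 7690 tested rows, which 0.39% of those rows passed. With edgeR on the recovered whole reads none passed either. At an unadjusted edgeR p under 0.05 there were 7 of the 31, against 8.36% of all rows in either direction. DESeq2 called none of the 6 to which it gave an adjusted p. At an unadjusted DESeq2 p under 0.05 there were 2 of the 31, against 2.86% of all rows in either direction. The following counts are from limma. At an unadjusted p under 0.05 there were 7 of the 31, or 22.6%, all with lower values in the knockdown, against 3.78% of all tested rows with lower values and 4.34% with higher values at that limit. Those 7 were Mcm2, RnrS, Fen1, Mcm3, DNApol-alpha73, Mcm6 and dpa. The count of 7 changed when knockdown library 2 or either control library was left out. Both knockdown libraries lay below both control libraries for 16 members, or 51.6%, against 19.5% of all tested rows, and above them for E2f1 alone, against 19.2% of all tested rows. The log2 fold change was negative for 23 members, or 74.2%, against 50.1% of all tested rows. The median over the members was -0.08, beside -0.00 over all tested rows, and the members ran from -0.20 for Fen1 to 0.09 for Orc5.

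**Figure D1:**
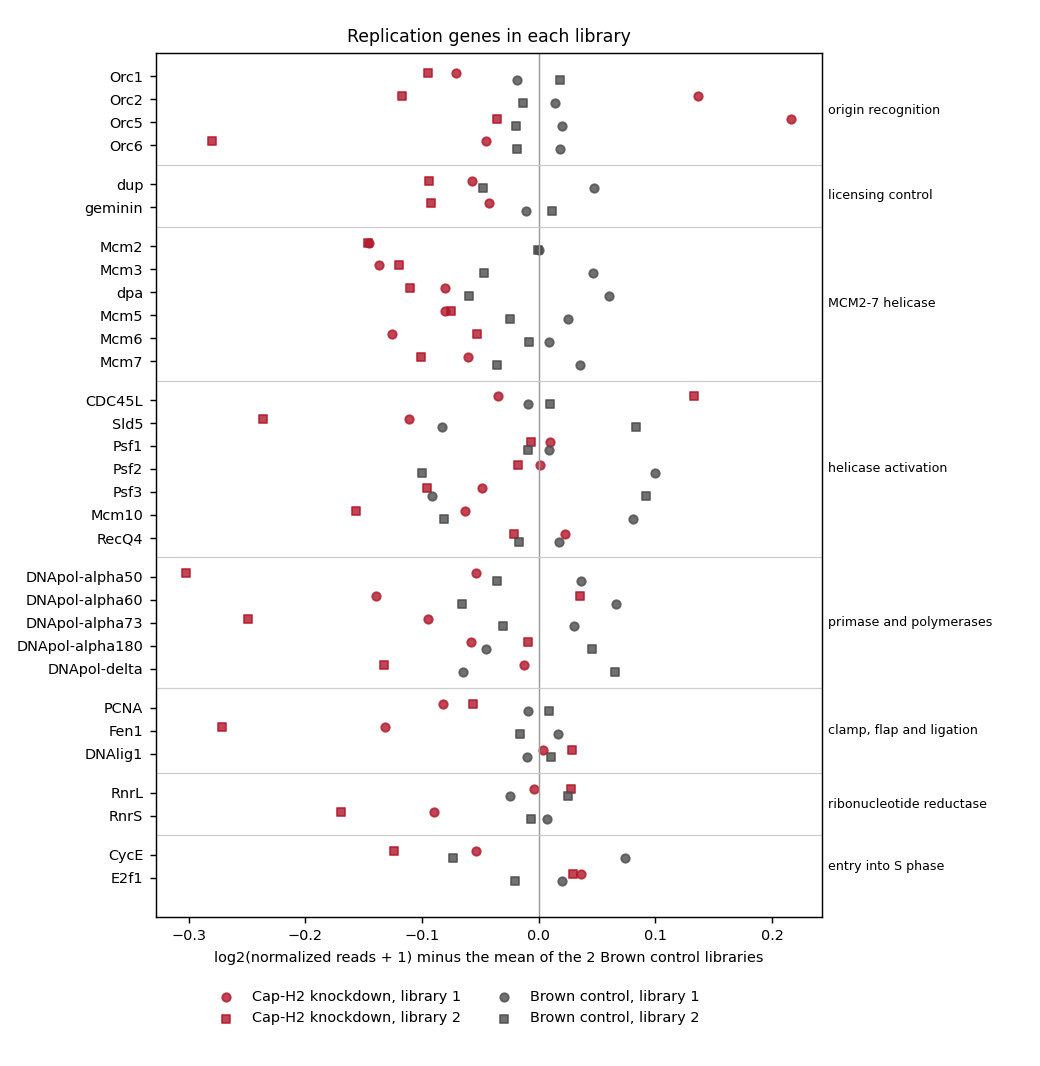
Value of each of the 31 genes in each library, as log2 of normalized reads plus 1 minus the mean of the 2 Brown control libraries, with genes grouped by step down the page. Circles are library 1 and squares library 2, and for 16 genes both knockdown points lie left of both control points, the 6 MCM subunits among them.

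The distances between groups were of the same order as those between libraries of a group. For 12 members the difference between the groups exceeded the difference between the libraries in both groups, and all 12 had lower values in the knockdown. The share of all tested rows with such a difference was not computed, so this count is a description only. Library 2 was below library 1 for 22 members in the knockdown and for 21 in the control, with median log2 differences of -0.04 and -0.03. Taking the libraries pair by pair, the median over the members was -0.07 for knockdown 1 minus control 1, -0.04 for knockdown 1 minus control 2, -0.10 for knockdown 2 minus control 1 and -0.07 for knockdown 2 minus control 2. All 4 medians were below 0. The number of members lower in the knockdown library was 22, 23, 26 and 24 of 31 in the same order. For these counts too, the share over all tested rows was not computed.

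The origin recognition complex was represented by Orc1, Orc2, Orc5 and Orc6, and its members did not share a sign. Orc6, the smallest subunit, had 252 and 214 normalized reads in the knockdown against 264 and 257 in the control (log2 fold change -0.16, SE 0.11, limma adjusted p = 0.73). Both knockdown values were the lower ones, but knockdown library 1 was closer to the control libraries than to knockdown library 2. Without knockdown library 2 the log2 fold change of Orc6 was -0.05. Orc1, an ATPase subunit whose protein level varies over the cell cycle, had 824 and 810 in the knockdown and 854 and 876 in the control, a log2 fold change of -0.08 (SE 0.06). For Orc2 and Orc5, core subunits, the groups overlapped. Orc2 had 586 and 491 normalized reads in the knockdown and 538 and 528 in the control, and Orc5 had 317 and 266 in the knockdown and 277 and 269 in the control. In both genes the knockdown libraries differed from each other by 0.25 on the log2 scale, more than the distance between the group means.

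Licensing is set by dup, the fly Cdt1, which brings MCM to origins, and by geminin, which binds and blocks it. Dup had 1866 and 1818 normalized reads in the knockdown and 2006 and 1879 in the control, or -0.08 on the log2 scale (SE 0.05, limma adjusted p = 0.69). Without control library 1 its value was -0.03 and without control library 2 it was -0.12. Geminin had 2032 and 1964 in the knockdown and 2077 and 2110 in the control, or -0.07 (SE 0.04), and -0.04 without knockdown library 2. The knockdown libraries were below the control libraries in both genes.

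All 6 subunits of the MCM helicase, the ring that unwinds DNA at the fork, had negative log2 fold changes, from -0.15 to -0.08 with a median of -0.09. In all 6 both knockdown libraries lay below both control libraries, against 19.5% of all tested rows. All 6 stayed negative under every alternative normalization and count model. Leaving out a library could not turn the sign, because the groups did not overlap. Summed over the ring, the normalized reads were 11515 and 11553 in the knockdown and 12638 and 12142 in the control, 93.1% of the control.

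Mcm2 (FBgn0014861, dm6 chromosome 3R, 8264970 to 8267924, plus strand, protein-coding) had 2006 and 2005 normalized reads in the knockdown against 2220 and 2219 in the control. It was the member with the smallest p (log2 fold change -0.15, SE 0.04, 95% interval -0.23 to -0.06, limma unadjusted p = 0.0021, adjusted p = 0.20). Libraries of a group differed by about 1 normalized read, well under the counting error of such a number of reads. Leaving out any library kept the value at -0.15.

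Mcm3 (FBgn0284442, chromosome X, 5323855 to 5326738) had 1606 and 1625 normalized reads in the knockdown and 1824 and 1710 in the control. Its log2 fold change was -0.13 (SE 0.05, limma unadjusted p = 0.013, adjusted p = 0.43), with -0.08 without control library 1 and -0.17 without control library 2. The knockdown libraries lay close together and the control libraries apart.

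The gene dpa, which encodes the fly Mcm4, had 2239 and 2192 in the knockdown and 2467 and 2270 in the control, or -0.10 (SE 0.04, limma unadjusted p = 0.049). This value rested most on control library 1, since it was -0.04 without that library and -0.16 without control library 2. Mcm6 had 2234 and 2349 in the knockdown and 2451 and 2423 in the control, or -0.09 (SE 0.04, limma unadjusted p = 0.044), with -0.05 without knockdown library 1 and -0.13 without knockdown library 2. Mcm7 had 1977 and 1923 in the knockdown and 2114 and 2012 in the control, or -0.08 (SE 0.04, limma unadjusted p = 0.080), and -0.04 without control library 1. An antisense RNA covers 2003 of the 2451 exonic bp of Mcm7, and how the counting treated strand is not stated. Mcm5 had 1453 and 1458 in the knockdown and 1563 and 1509 in the control, or -0.08 (SE 0.05).

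**Figure D2:**
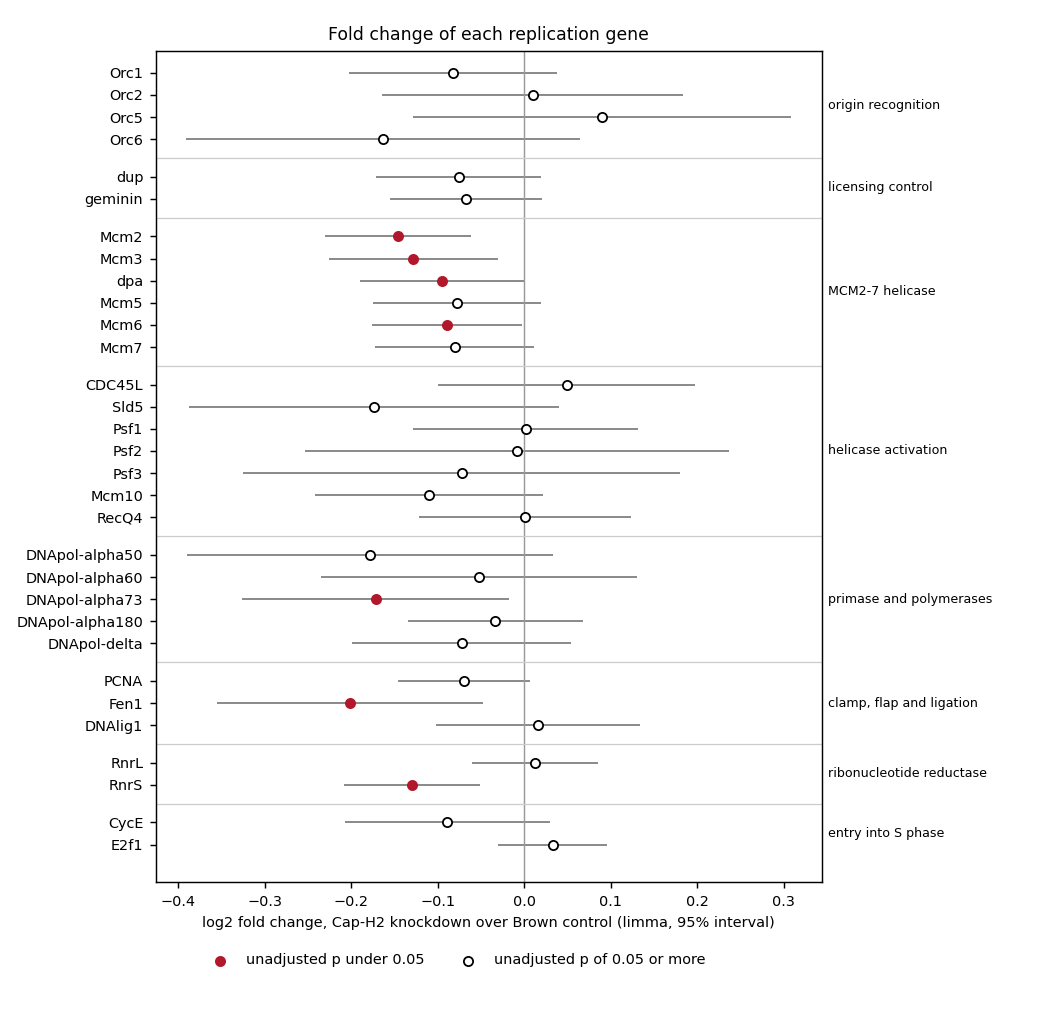
Log2 fold change of each of the 31 genes, Cap-H2 knockdown over Brown control, with limma's 95% interval as a line. Filled points have an unadjusted p under 0.05 and are Mcm2, Mcm3, dpa, Mcm6, DNApol-alpha73, Fen1 and RnrS, all left of 0, and no adjusted p passed 0.05.

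The factors that turn the loaded ring into an active helicase had a median log2 fold change of -0.01 over 7 genes, 4 negative and 3 positive. The sign of this median turned with median centring and with quantile normalization, to 0.01 and 0.02, and it was also 0.01 without control library 1, against -0.03 without knockdown library 2. Sld5, a GINS subunit, had 269 and 247 normalized reads in the knockdown and 275 and 308 in the control (log2 fold change -0.17, SE 0.10, limma adjusted p = 0.68). Control library 1 was close to the knockdown libraries, and without it the value was -0.26, against -0.09 without control library 2. The other GINS genes overlapped between groups. Psf1 had 694 and 686 in the knockdown and 694 and 685 in the control, a log2 fold change of 0.00 with a 95% interval from -0.13 to 0.13. Psf2 and Psf3 had -0.01 and -0.07 with intervals of -0.25 to 0.24 and -0.33 to 0.18.

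Mcm10, which binds the helicase and polymerase alpha, had 964 and 904 normalized reads in the knockdown and 1066 and 952 in the control. Control library 2 fell between the knockdown libraries, and the value of -0.11 on the log2 scale (SE 0.06, limma adjusted p = 0.68) was -0.03 without control library 1 and -0.19 without control library 2. CDC45L, the fly Cdc45 that completes the active helicase, had 607 and 682 in the knockdown and 618 and 626 in the control, or 0.05 (SE 0.07), and -0.03 without knockdown library 2. RecQ4, whose relatives in yeast and vertebrates act in origin firing, had 825 and 800 in the knockdown and 822 and 802 in the control, with a 95% interval from -0.12 to 0.12.

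Polymerase alpha with its primase starts every new strand, and polymerase delta extends lagging strands. All 5 genes of this step had negative values, with a median of -0.07. Omitting knockdown library 2 moved this median to -0.06, with all 5 genes still negative. Omitting knockdown library 1, control library 1 or control library 2 moved it to -0.13, -0.14 or -0.12, and 4 genes were then negative each time. DNApol-alpha73, the B subunit of polymerase alpha (listed as PolA2, FBgn0005696, chromosome 3R, 27239163 to 27241228), had 567 and 510 normalized reads in the knockdown against 619 and 593 in the control. Its log2 fold change was -0.17 (SE 0.07, limma unadjusted p = 0.031, adjusted p = 0.55), and the groups did not overlap. Without knockdown library 2 it was -0.09 and without knockdown library 1 it was -0.25.

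DNApol-alpha50, the catalytic primase subunit (listed as Prim1), had 316 and 266 normalized reads in the knockdown and 337 and 320 in the control, or -0.18 (SE 0.10, limma adjusted p = 0.68). Knockdown library 1 was nearly at the level of control library 2, and without knockdown library 2 the value was -0.05. For the large primase subunit DNApol-alpha60, the catalytic subunit DNApol-alpha180 and DNApol-delta the groups overlapped, at -0.05 with an SE of 0.09, -0.03 with an SE of 0.05 and -0.07 with an SE of 0.06 on the log2 scale. Of these, DNApol-alpha60 turned positive without knockdown library 1 (0.04) and without control library 1 (0.01), and DNApol-alpha180 without control library 2 (0.01). DNApol-delta stood at -0.01 without control library 2 and without knockdown library 2, and at -0.14 without control library 1.

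PCNA is the sliding clamp that holds polymerase delta, Fen1 cuts the flaps of Okazaki fragments, and the ligase DNAlig1 seals them. Fen1 (FBgn0025832, chromosome 2R, 16854025 to 16855464, minus strand) had 533 and 484 normalized reads in the knockdown against 591 and 578 in the control. The groups did not overlap, and the log2 fold change was -0.20 (SE 0.07, 95% interval -0.36 to -0.05, limma unadjusted p = 0.013, adjusted p = 0.43). Leaving out knockdown library 2 gave -0.13 for Fen1, and leaving out knockdown library 1 gave -0.27. Exons of Fen1 share 80 of 1378 bp with IntS8 on the opposite strand.

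PCNA had 3095 and 3150 normalized reads in the knockdown and 3256 and 3297 in the control, or -0.07 on the log2 scale (SE 0.04, limma unadjusted p = 0.072, adjusted p = 0.65). The groups did not overlap, and leaving out a library gave -0.08 to -0.06. DNAlig1, which acts right after Fen1, had 871 and 885 in the knockdown and 862 and 874 in the control, or 0.02 with a 95% interval from -0.10 to 0.13.

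Ribonucleotide reductase makes deoxynucleotides from a large and a small subunit, and its genes had different values. RnrS, the small subunit (FBgn0011704, chromosome 2R, 11983145 to 11985393, minus strand), had 3736 and 3536 normalized reads in the knockdown against 3996 and 3958 in the control, or 91.4% of the control. The log2 fold change was -0.13 (SE 0.04, 95% interval -0.21 to -0.05, limma unadjusted p = 0.0028, adjusted p = 0.24), and it was -0.09 without knockdown library 2. RnrL, the large subunit, had 4564 and 4665 in the knockdown and 4498 and 4656 in the control. Its log2 fold change was 0.01 with a 95% interval from -0.06 to 0.08, one of the narrowest among the members, and the groups overlapped. The difference between RnrS and RnrL was not tested.

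Entry into S phase is driven by CycE, the cyclin of Cdk2, and by E2f1, the activating E2F. CycE had 1238 and 1180 normalized reads in the knockdown and 1353 and 1221 in the control, with overlapping groups (log2 fold change -0.09, SE 0.06, limma adjusted p = 0.71). Without control library 1 it was -0.02 and without control library 2 it was -0.16. E2f1 had 10119 and 10074 in the knockdown and 10008 and 9730 in the control, and was the only member with both knockdown libraries above both control libraries. Its log2 fold change was 0.03 (SE 0.03, limma adjusted p = 0.82), within a 95% interval from -0.03 to 0.10. It was 0.01 without control library 2, 0.05 without control library 1, 0.01 with quantile normalization and 0.02 after the length trend was removed.

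Levels per exonic length spread widely among the members. PCNA was highest, at 2918 ± 36.5 normalized reads per kb of exon in the knockdown and 3062 ± 27.1 in the control (SD, n = 2 each). RnrS followed with 2283 ± 88.8 per kb in the knockdown and 2497 ± 16.7 in the control. Geminin had 1883 ± 45.7 per kb in the knockdown and 1973 ± 21.6 in the control, and RnrL had 1791 ± 27.8 in the knockdown and 1776 ± 43.3 in the control. E2f1 came next with 1565 ± 4.98 in the knockdown and 1530 ± 30.5 in the control.

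The 6 MCM genes lay together, from 588 for Mcm3 to 821 for Mcm6 per kb in the knockdown and from 626 for Mcm5 to 874 for Mcm6 in the control. Within this group dpa and Mcm2 did not differ beyond their spread in the control, at 771 ± 45.4 and 766 ± 0.284 per kb. Each subunit held 13.9% to 20.0% of the MCM reads per kb in the knockdown libraries and 13.8% to 19.6% in the control libraries. The share of Mcm2 was 16.5% and 16.4% in the knockdown, against 16.6% and 17.3% in the control.

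The GINS genes, whose proteins join in equal copies, were far apart. Psf1 had 997 ± 7.85 per kb in the knockdown and 996 ± 8.68 in the control, while Psf3 was the lowest of all members with 74.6 ± 1.74 in the knockdown and 78.6 ± 7.11 in the control. Part of the exonic length of Psf3, 831 of 2380 bp, overlaps CG17841 on the opposite strand, so its value per kb depends on the annotation. The SE of the log2 fold change ran from 0.03 for E2f1, the member with the most normalized reads, to 0.12 for Psf3, the member with the fewest.

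**Figure D3:**
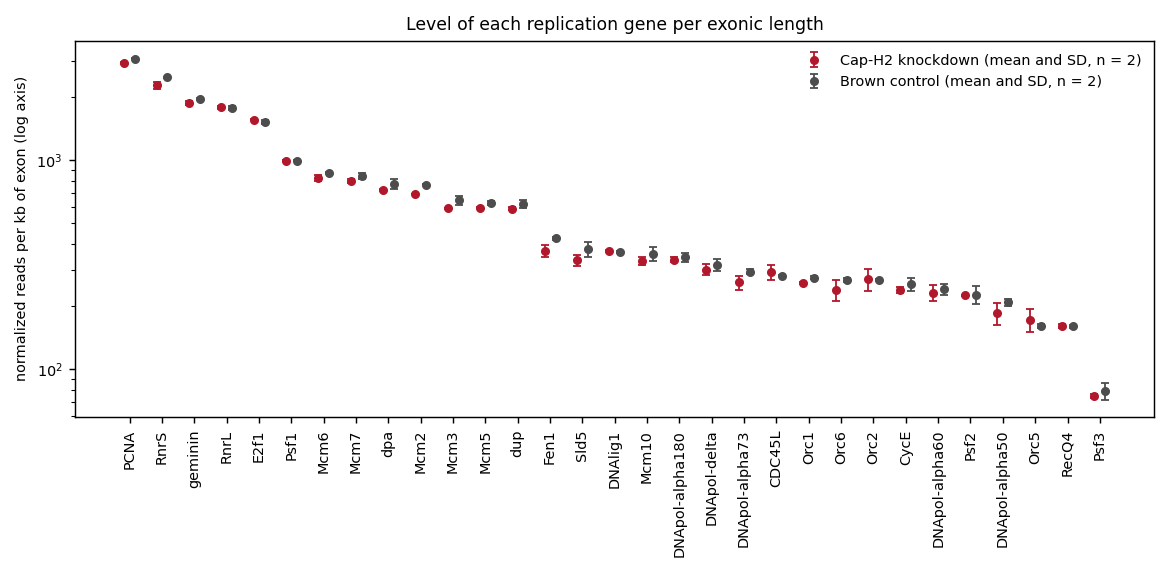
Normalized reads per kb of exon of each of the 31 genes, on a log axis, as mean and SD of 2 libraries in Cap-H2 knockdown (left point of each pair) and Brown control. Genes are ordered by their control level, from PCNA at 3062 to Psf3 at 78.6 per kb, and the MCM subunits lie together between 626 and 874 in the control.

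Beside the members, 53 other replication genes chosen by role had a row and all 53 were tested. Among them were the ORC gene Orc4 and genes of the clamp loader, replication protein A, polymerase epsilon, chromatin assembly and nucleotide supply. None passed limma or edgeR, and 5 of the 53 had an unadjusted limma p under 0.05, all with lower values in the knockdown. At that limit 3.78% of all tested rows had lower values and 4.34% had higher values. The log2 fold change was negative for 35 of them, or 66%, with a median of -0.05, and both knockdown libraries lay below both control libraries for 22, or 41.5%, against 19.5% of all tested rows. The dUTPase, which keeps uracil out of DNA, had 3338 and 3109 normalized reads in the knockdown and 3504 and 3475 in the control, or -0.12 (SE 0.04, limma adjusted p = 0.39). PolD2, the partner of polymerase delta's catalytic subunit, had 1124 and 1106 in the knockdown and 1230 and 1210 in the control, or -0.13 (SE 0.05). Slbp, the binding protein of histone mRNA ends, had -0.16 (SE 0.06), Orc4 had -0.13 (SE 0.06) and Rif1, a regulator of late origins, had -0.11 (SE 0.04).

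By role, all 4 nucleotide supply genes had negative values and groups that did not overlap, with a median of -0.09, and all 6 genes around E2F and the G1 to S switch had negative values, from -0.18 for Rbf2 to -0.01 for dap. The 5 genes of origin firing did not share this sign: 4 were positive, with a median of 0.01. In mus101, the fly TopBP1, both knockdown libraries were above both control libraries, with 743 and 733 normalized reads in the knockdown against 701 and 682 in the control (log2 fold change 0.09, SE 0.06, limma adjusted p = 0.72). Cdc6, which loads MCM together with dup, had 304 and 326 in the knockdown and 319 and 249 in the control, and its value of 0.16 (SE 0.11) came from overlapping groups.

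As a second list of cell cycle genes, 39 genes of mitosis had a median log2 fold change of -0.02. None passed limma or edgeR, and 2 of the 39 had an unadjusted limma p under 0.05. They were the kinesin gene sub with -0.13 (SE 0.06) and the spindle checkpoint gene Bub3 with -0.09 (SE 0.04). At that limit 3.78% of all tested rows had lower values and 4.34% had higher values. Both knockdown libraries lay below both control libraries for 8 of the 39, or 20.5%, near the 19.5% of all tested rows, while 26, or 66.7%, had a negative value. The difference between the replication and mitosis genes was not tested.

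**Figure D4:**
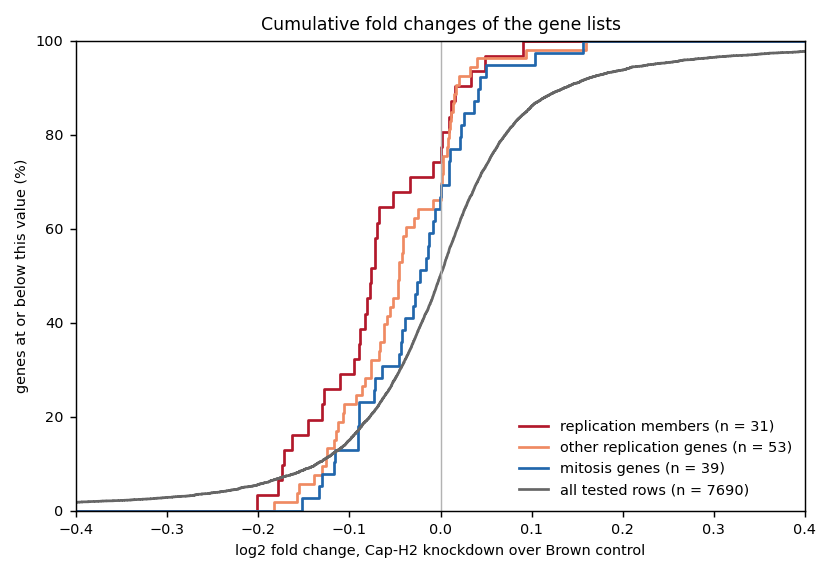
Percent of genes at or below each log2 fold change, Cap-H2 knockdown over Brown control, for the 31 replication genes, 53 other replication genes, 39 mitosis genes and all 7690 tested rows. The medians lie at -0.08, -0.05, -0.02 and -0.00, and all tested rows reach farther to both sides than the lists do.

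The 31 genes lie on 5 chromosome arms, with 9 on 2R, 7 on 3R, 6 on 3L, 5 on 2L and 4 on X. Their median log2 fold change was -0.08 on 2R, 3R and X, -0.06 on 3L and -0.01 on 2L, beside medians of all tested genes between -0.01 and 0.01 on these arms. The median exonic length of the members, 2386 bp, was near that of all tested protein-coding genes, 2201 bp, and after a trend with length was removed the median over the members was -0.07. The authors' deposited table gave no member an adjusted p under 0.05, with 32 rows under it in all. Its adjusted p, from a test that is not stated, was 0.999 for every member. It gave RnrS and Mcm2 the smallest unadjusted p of the members, 0.012 and 0.018, and negative values for 23 of the 31. Its log2 fold changes were far smaller in size than those of limma, with -0.017 for RnrS and -0.013 for Mcm2.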

How the data were processed

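RNA sequencing libraries of BG3 cells were compared, 2 with Cap-H2 knockdown and 2 with Brown knockdown. Per the submitters' processing notes, fastp, HISAT2 and HTSeq were used with dm6. Versions, annotation and strand setting are not stated there. The authors deposited a signal per gene and library, read counts divided by a size factor, and a table of log2 fold changes and p-values whose test is not stated. Each column was whole multiples of a step for 100% of values (tolerance 0.001 reads). The 3 special rows of HTSeq, 11.5% to 13.9% of reads, were left out.

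The remaining 8806 rows were matched to Ensembl BDGP6 (dm6) symbols and RefSeq synonyms for 8688 rows, which also gave exon lengths. Log2 of normalized reads plus 1 was fitted with limma 3.58.1 in R 4.3.3 (mean trend, two-sided) after a minimum mean of 10, which left 7690 rows. P-values were adjusted by Benjamini-Hochberg over all of them. Residual degrees of freedom were 2, with a prior of 14.4. With 2 against 2 libraries, the smallest p of an exact permutation test is 0.333. Alternatives included edgeR 4.0.16 and DESeq2 1.42.0 on the recovered reads. The fit was tested on simulated data in which every planted change was larger in size than that of any member. That test therefore does not cover changes of the members' size.

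Members and lists were chosen with earlier results of these data known. Values of every library are given for the 12 members with the smallest p and the leading member of each step. From each of the other lists, up to 6 genes at an unadjusted p under 0.05 are named. Some of these are given by log2 fold change and SE only. Orc1, Orc2, Orc5, geminin, Mcm5, Psf1, CDC45L, RecQ4, DNAlig1, RnrL, E2f1, mus101, Cdc6, Rbf2 and dap were named after their values were seen. No sequences are shown.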

Additional observations from a re-analysis of the deposited data

How the results depend on the processing

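The median log2 fold change of the 31 replication genes was negative under every alternative, from -0.06 with median centring to -0.08 with edgeR, and from -0.10 to -0.05 when a library was left out. No member passed under any alternative without a replicate block. With limma and the replicate number as a block 2 passed, Mcm2 (-0.15, adjusted p = 0.043) and RnrS (-0.13, adjusted p = 0.026), and with edgeR and the block the same 2 (-0.15 and -0.13, adjusted p = 0.025 and 0.0037). Limma's prior was then infinite on a single residual degree of freedom. Deviations of same-numbered libraries had a correlation of -0.03 over all tested rows and 0.003 over the members. The sign of library 2 minus library 1 was the same in both groups for 22 of the 31 members. No label says whether same-numbered libraries were made together, and such a correlation cannot settle it. With edgeR and the block 1 other replication gene and 1 mitosis gene passed, and leaving out a library gave 0 to 1 mitosis genes. Over all rows 30 passed, against 14 with quantile normalization, 59 with robust empirical Bayes, 146 with the block, 160 with edgeR and the block, and 41 to 127 with a library left out. The log2 fold change of Cap-H2 stayed past the threshold in all fits that gave it an adjusted p. DESeq2 gave none to it or to 6112 of the 7690 rows.

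Members near 0 turned sign. Psf2 stood at 0.0059 with median centring, 0.020 with quantile normalization and 0.013 after the length trend was removed. RecQ4 stood at -0.00057 with TMM factors, -0.010 after the length trend was removed, -0.00049 with edgeR and -0.00052 with edgeR and the block, and RnrL at -0.0010 with quantile normalization. Leaving out a library gave ranges of -0.12 to 0.14 for Orc2, -0.036 to 0.22 for Orc5, -0.035 to 0.13 for CDC45L, -0.0074 to 0.010 for Psf1, -0.11 to 0.092 for Psf2, -0.16 to 0.019 for Psf3, -0.021 to 0.022 for RecQ4, -0.14 to 0.035 for DNApol-alpha60, -0.079 to 0.012 for DNApol-alpha180 and -0.013 to 0.037 for RnrL. With 2 libraries per group, limma's SE of a member ran from 0.03 to 0.12 on the log2 scale.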

Other observations

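Ratios of normalized reads between partner genes of one library do not depend on its size factor. The pairs were chosen after the members' values were seen, and no test was made. RnrS over RnrL was 0.819 and 0.758 in the knockdown, against 0.888 and 0.850 in the control. Fen1 over DNAlig1 was 0.613 and 0.547 in the knockdown and 0.686 and 0.661 in the control. In both ratios the knockdown libraries lay below the control libraries, and knockdown library 2 was the lowest. The sum of the 6 MCM genes over Cdc45 was 19.0 and 16.9 in the knockdown and 20.5 and 19.4 in the control, again without overlap. RnrS, Fen1 and the MCM genes had already been seen to be lower in the knockdown, and their partners had not. These ratios therefore add no separate result. Geminin over dup, the inhibitor over its target, was 1.09 and 1.08 in the knockdown and 1.04 and 1.12 in the control, and the groups overlapped. The 3 smaller genes of the polymerase alpha complex over DNApol-alpha180 overlapped between groups as well, with 0.372 and 0.323 in the knockdown and 0.402 and 0.362 in the control for DNApol-alpha73.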
